A study of Arabidopsis thaliana with 6 samples.

Results

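Small RNAs of low abundance were followed in Arabidopsis thaliana leaf explants. They are miR847 (miRNA-precursor_6 in the deposited table), miR830-5p (miRNA-precursor_9), miR843 (miRNA-precursor_185), miR5998a/b (miRNA-precursor_240) and a 22-nt sequence without MIR annotation (miRNA-precursor_309), called the chloroplast sequence after its match in the genome. They are 5 of 178 precursor entries, which hold 142 distinct mature sequences, and no other entry carries the sequence of any of the 5. They were picked by entry because their values leaned up in the mutant, so every comparison of the genotypes for them describes the choice and is not a test of it. The mutant genotype was ein2-1, a mutant allele of EIN2, a membrane protein needed for nearly all responses to ethylene, and it was set against the wild type Col-0. Each genotype had 3 libraries of small RNA, stated to be biological replicates. All 6 came from seedlings 14 days old that were submerged for 1 hour, and from the upper part of leaf explants after 7 days of culture on callus-inducing medium (CIM). Submergence and time on CIM were thus shared by both genotypes. The table lists small RNAs alone, so neither the EIN2 transcript nor marker genes of leaf or callus could be looked up.

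Plant miRNAs are cut from a hairpin precursor by a Dicer-like enzyme and then guide an Argonaute protein to messages with a closely matching site, which are cleaved or translated less. Many MIR genes are young, shared only with close relatives of Arabidopsis, and such miRNAs are usually weakly expressed and have few established targets. One route known for their birth is the copying of part of a protein-coding gene into an inverted repeat, which leaves the new precursor similar to its later target. Of the 4 annotated members, miR847 has an established target in Arabidopsis, the message of IAA28, a repressor of auxin response.

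The mature sequences are shown with the seed, bases 2 to 8, in capitals, so that this stretch can be compared between sequences. A different seed does not show that 2 members have no target gene in common.
miR847: uCACUCCUcuucuucuugaug
miR830-5p: uCUUCUCCaaauaguuuagguu
miR843: uUUAGGUCgagcuucauugga
miR5998a/b: aCAGUUUGuguuuuguuuugu
chloroplast sequence: uAUAGGCAuuauuuuuuuuucu
No seed was shared by 2 members, and no other distinct sequence carried one of these seeds. All members but miR5998a/b began with U, as did 56 of all 142 distinct sequences. miR847, miR843 and miR5998a/b were 21 nt long, a length held by 58 of the 142, while miR830-5p and the chloroplast sequence were 22 nt long, a length held by 9. The chloroplast sequence was poor in G and C, at 18.2% against a median of 41.7% over all sequences, and its run of 9 U was matched in no other sequence.

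Of the members, miR847, miR830-5p, miR843 and miR5998a/b matched an annotated mature miRNA of the TAIR10.1 reference end to end. miR847 lay in MIR847 (AT1G07051) at chr1:2165675-2165695 on the plus strand. miR830-5p lay in MIR830 (AT1G14071) at chr1:4820473-4820494 on the minus strand, and the opposite strand of its duplex, miR830-3p, was not among the entries. miR843 lay in MIR843 (AT3G48057) at chr3:17742147-17742167 on the plus strand. No entry held a second product of any of these precursors. In the minimum free energy fold of RNAfold, the mature sequence of these precursors had 17 (miR847), 20 (miR830-5p) and 20 (miR843) of its bases paired, in each case with 1 stretch of the opposite arm. miR847 came from the 3′ arm, at bases 159 to 179 of 230, and miR830-5p and miR843 from the 5′ arm.

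miR5998a/b had 3 exact matches in the genome. On chromosome 5 it was the annotated product of MIR5998a (AT5G01745, plus strand, chr5:3247262-3247282) and of MIR5998b (AT5G01735, minus strand, chr5:3247378-3247398). These precursors are 197 bases long each and share 189 bases on opposite strands, so that 1 inverted repeat is read from both sides. All 21 bases of the mature sequence were paired in the predicted folds, at -73.8 kcal/mol for MIR5998a and -77.5 kcal/mol for MIR5998b. The third match, chr1:27065111-27065131 on the minus strand, lay antisense to the 5′ UTR of AT1G71910, a gene for a protein of unknown function on the plus strand (27064932 to 27066109). Reads of this sequence cannot be assigned to 1 of the 3 places. The precursor MIR5998a is shown, with the mature sequence in capitals, because its arms and loop bear on the predicted target below.
MIR5998a: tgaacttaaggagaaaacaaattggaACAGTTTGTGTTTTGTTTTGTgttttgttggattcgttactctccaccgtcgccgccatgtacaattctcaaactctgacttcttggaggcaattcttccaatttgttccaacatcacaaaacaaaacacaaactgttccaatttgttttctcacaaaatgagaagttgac
It spans chr5:3247236-3247432 on the plus strand.

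The chloroplast sequence matched the chloroplast genome alone, at positions 11489 to 11510 on the minus strand, and was the only one of the 142 distinct sequences with a chloroplast match. It lay in the spacer between atpF and atpA, which encode subunits of the chloroplast ATP synthase on the same strand, 18 bases after the end of atpF and 27 bases before the start of atpA. The spacer is shown with the sequenced stretch in capitals, to give its place between the genes.
atpF-atpA spacer: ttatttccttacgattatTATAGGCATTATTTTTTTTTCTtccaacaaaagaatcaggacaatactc
The spacer spans positions 11462 to 11528, or 67 bases. In the predicted fold of a window with 100 bases on either side, 14 of the 22 bases of the chloroplast sequence were paired. Partners outside the sequence lay between bases 132 and 210 of the window, where those in each annotated precursor lay within a stretch of 21 bases. The ends of the window were set by distance, those of the precursors by annotation. The label of a miRNA thus rests, for this entry, on the deposited table and not on a MIR annotation or a hairpin of this window. Chloroplast transcripts can leave short RNA fragments behind, and whether this sequence is one was not tested.

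**Figure D1:**
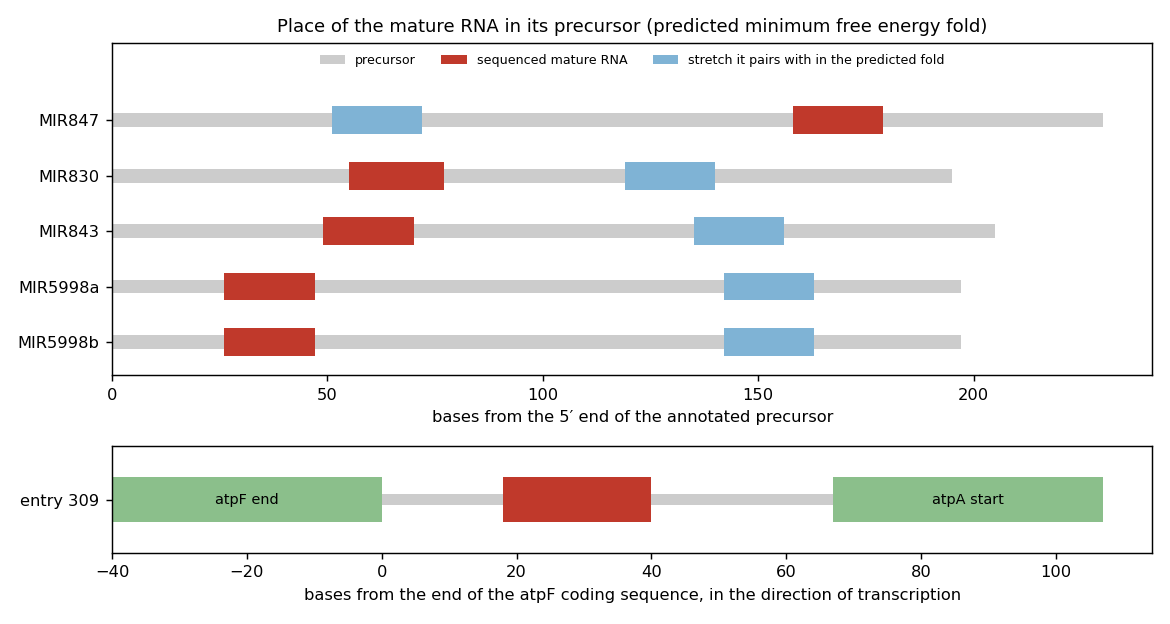
Upper panel: position of the sequenced mature RNA (red) and of the stretch it pairs with in the predicted fold (blue) along the 5 annotated precursors (grey), in bases from the 5′ end. Lower panel: the chloroplast sequence (red, labelled by its entry number) in the 67-base spacer between the end of atpF and the start of atpA (green, not drawn to their full length). The miR847 sequence lies on the 3′ arm, those of the other precursors on the 5′ arm, and the chloroplast sequence lies 18 bases after atpF.

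The members made up 122 to 182 CPM (entry counts scaled to a common library total) in ein2-1 libraries and 57.2 to 98.4 CPM in Col-0 libraries. Their ranks by mean level were 60 (miR5998a/b), 73 (miR830-5p), 84 (miR843), 107 (the chloroplast sequence) and 117 (miR847) of 142. The entry totals were 1163907 to 1882664 counts in ein2-1 and 559411 to 940058 in Col-0, a ratio of means of 2.16, so raw counts favour ein2-1. The most abundant miRNA, miR166, took 58.2% to 60.0% of the entry total in ein2-1 and 44.6% to 46.2% in Col-0. Its identical counts stand in 3 entries, and the entry total counts them in each. Counted once per distinct sequence, totals were 606476 to 987089 in ein2-1 and 333025 to 556692 in Col-0. Plain totals below are entry totals. TMM scaling, which sets libraries level by the bulk of the entries, gave factors of 0.737 to 0.853 in ein2-1 and 1.20 to 1.32 in Col-0 and brought the ratio down to 1.34. All 5 members were among the 118 distinct sequences that passed the count filter. Under TMM the median log2 fold change of those 118 sequences was 0.056, against -0.64 with the plain totals. Intervals given below are exact (Clopper-Pearson, 95%) and cover counting error only. In such bulk tissue, fewer cells of a type and less RNA per cell cannot be told apart.

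miR847, the regulator of IAA28, had 12, 16 and 17 reads in ein2-1 replicates 1 to 3, against 9, 2 and 7 reads in Col-0 replicates 1 to 3. The raw counts did not overlap, but all 3 Col-0 libraries had under 10 reads. With plain totals this came to 8.50 to 11.9 CPM in ein2-1 and 3.58 to 12.3 CPM in Col-0, so the groups overlapped on that scale and the highest library was a Col-0 one. The counting interval of Col-0 replicate 2 ran from 0.433 to 12.9 CPM and included each of the ein2-1 values. After TMM scaling the level was 13.1 ± 2.71 CPM in ein2-1 and 6.67 ± 3.45 CPM in Col-0 (SD, n = 3 each), without overlap. The log2 fold change was 0.90 (SE 0.37) under TMM and 0.22 (SE 0.37) with plain totals.

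miR830-5p had 25, 36 and 58 reads in ein2-1, against 20, 16 and 21 reads in Col-0. With plain totals these were 21.5, 19.1 and 40.5 CPM in ein2-1 and 21.3, 28.6 and 36.9 CPM in Col-0. Replicate 3 was the highest of all libraries, ein2-1 replicate 1 lay just above the lowest Col-0 library, and ein2-1 replicate 2 lay below all Col-0 libraries. After TMM scaling the level was 35.0 ± 17.4 CPM in ein2-1 and 22.6 ± 5.12 CPM in Col-0 (SD, n = 3 each), and the libraries overlapped. The log2 fold change was 0.64 (SE 0.37) under TMM, 0.18 without ein2-1 replicate 3, and -0.063 (SE 0.35) with plain totals. Its direction therefore rested on the scaling and, in size, on 1 library.

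miR843 had 35, 43 and 50 reads in ein2-1, against 10, 1 and 11 reads in Col-0. All ein2-1 libraries lay above all Col-0 libraries, with plain totals too, where the values were 22.8 to 35.0 CPM in ein2-1 and 1.79 to 19.3 CPM in Col-0. The single read of Col-0 replicate 2 allows 0.0453 to 9.96 CPM, an interval that overlaps that of Col-0 replicate 1 (5.10 to 19.6 CPM). The interval of Col-0 replicate 3, 9.65 to 34.6 CPM, included the values of ein2-1 replicates 1 and 2 (30.1 and 22.8 CPM). After TMM scaling the level was 37.4 ± 9.14 CPM in ein2-1 and 8.28 ± 6.63 CPM in Col-0 (SD, n = 3 each). The log2 fold change was 2.13 (SE 0.44), 1.89 without Col-0 replicate 2 and 2.81 without Col-0 replicate 3.

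miR5998a/b, the most abundant member, had 49, 116 and 106 reads in ein2-1, against 13, 11 and 14 reads in Col-0. The groups did not overlap on any scale, and with plain totals the values were 42.1, 61.6 and 74.1 CPM in ein2-1 and 13.8, 19.7 and 24.6 CPM in Col-0. The lowest ein2-1 library had an interval of 31.1 to 55.7 CPM and the highest Col-0 library one of 13.4 to 41.3 CPM, so counting error alone let these 2 touch. After TMM scaling the level was 76.6 ± 25.7 CPM in ein2-1 and 15.1 ± 3.55 CPM in Col-0 (SD, n = 3 each). The log2 fold change was 2.37 (SE 0.35) under TMM and 1.67 (SE 0.32) with plain totals.

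The chloroplast sequence had 21, 24 and 29 reads in ein2-1, against 4, 2 and 3 reads in Col-0. Its Col-0 level was the lowest of the members, with 9 reads over 3 libraries, and no Col-0 library reached 10 reads. With plain totals the values were 12.7 to 20.3 CPM in ein2-1 and 3.58 to 5.27 CPM in Col-0, without overlap. The widest Col-0 interval, of replicate 3, was 1.09 to 15.4 CPM and reached past the lowest ein2-1 value. After TMM scaling the level was 21.7 ± 5.54 CPM in ein2-1 and 3.43 ± 0.616 CPM in Col-0 (SD, n = 3 each). The log2 fold change was 2.59 (SE 0.38), the fifth highest of the 118 sequences tested, with miR5998a/b and miR843 at ranks 6 and 10.

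**Figure D2:**
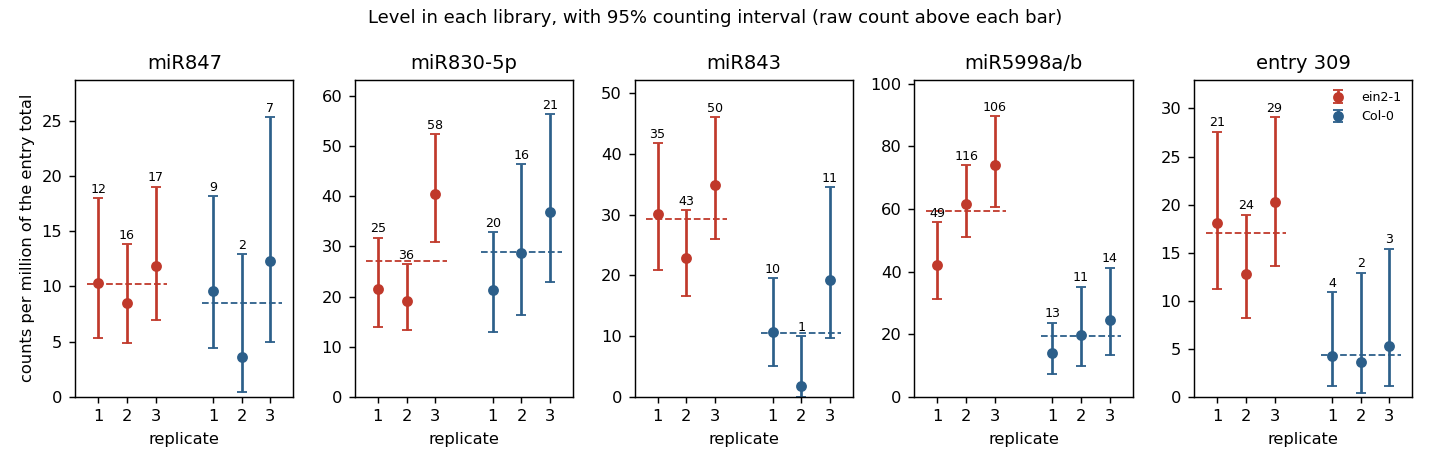
CPM of the entry total (plain totals, y axis) in each library of the 5 members, with ein2-1 (red) left of Col-0 (blue); x axis, replicate. Bars are exact 95% counting intervals, numbers above them raw reads, and dashed lines group means. The groups overlap for miR847 and miR830-5p and are apart for miR843, miR5998a/b and the chloroplast sequence.

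On TMM scaling, 4 of the 5 members passed an adjusted p of 0.05 as higher in ein2-1 (edgeR quasi-likelihood test, adjusted over all entries), beside 34.7% of the 118 distinct sequences tested, and 66.9% in either direction. miR830-5p did not pass. Without overlap as higher in ein2-1 were 4 of 5 members, beside 35.6% of the tested sequences, and 66.9% in either direction. With plain totals 3 of 5 members passed, beside 17.8% of sequences higher and 67.8% in either direction. Likewise 3 of 5 did not overlap, beside 17.8% higher and 68.6% in either direction. All 5 had a log2 fold change above 0 under TMM, as had 51.7% of the tested sequences. When the TMM fit held each distinct sequence once, 3 of 5 members passed, beside 20.8% of 120 sequences higher and 52.5% in either direction. Since the members were chosen on this contrast, these counts are a description and nothing is read from them. The calls over all sequences were 41 higher and 38 lower under TMM, and 21 higher and 59 lower with plain totals.

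The members fell into 2 sets by the size of their difference. miR843, miR5998a/b and the chloroplast sequence lay at 2.13 to 2.59 on the log2 scale under TMM and at 1.44 to 1.92 with plain totals. miR847 and miR830-5p lay at 0.90 and 0.64 under TMM. Over the 12 alternative settings with all libraries, miR843, miR5998a/b and the chloroplast sequence passed in each, miR847 in 4 and miR830-5p in 2. All members had a positive log2 fold change in each of these settings but for miR830-5p with plain totals. Without 1 library at a time, miR847 did not pass when ein2-1 replicate 1, Col-0 replicate 1 or Col-0 replicate 2 was left out, with 0.94, 1.22 and 0.78. It missed the count filter without ein2-1 replicate 3. miR830-5p passed without Col-0 replicate 2 or 3, with 0.80 and 0.95.

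**Figure D3:**
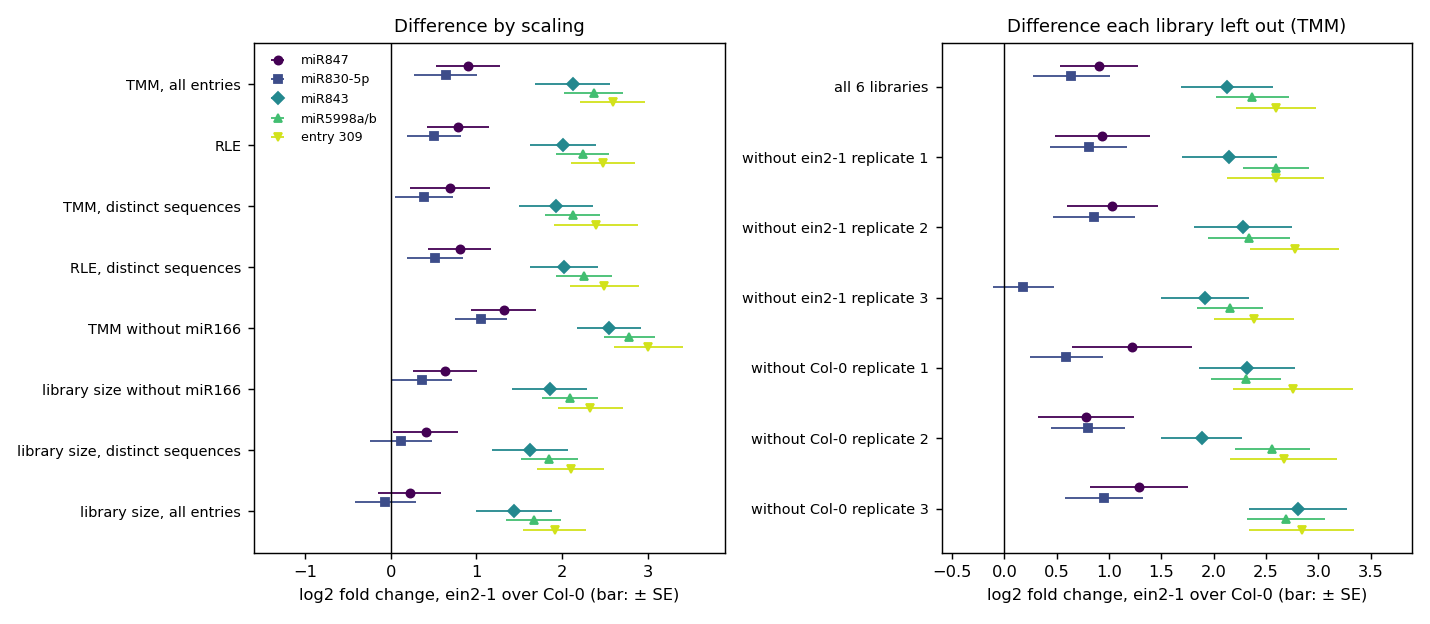
Difference between ein2-1 and Col-0 as log2 fold change (x axis, bars ± SE) of the 5 members under 8 scalings (left) and with each library left out in turn under TMM (right). miR843, miR5998a/b and the chloroplast sequence stay between 1.44 and 3.01, while miR847 and miR830-5p reach 0.22 and -0.063 with plain totals of all entries. miR847 has no point without ein2-1 replicate 3, where it missed the count filter.

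Other sequences of similar abundance are given beside the members under TMM, which centres the bulk of the sequences near 0. The 53 other tested sequences within the members' range of mean log2 CPM, 3.46 to 5.15, had 28 positive log2 fold changes and a median of 0.048. The median of the members was 2.13, but they were chosen for leaning up, so this gap describes the choice. Of these 53, 16 passed as higher and 14 as lower in ein2-1. The 18 among them with a MIR annotation had 6 positive values and a median of -0.33, and 2 passed as higher and 7 as lower. The annotated members are left out of these 18 as well. The median standard error was 0.34 for the 53 sequences, against 0.37 for the members and 0.30 for all 118.

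The sequences nearest to a member in profile were found by Euclidean distance between log2 CPM values (TMM, prior count 2), each centred on its mean over the 6 libraries. The nearest 2 are named for each member. For miR830-5p they were miR5654-5p, at 0.31, and entry 212, at 0.47, against a median of 1.65 over all other sequences. For miR5998a/b they were entries 190 and 102, at 0.42 and 0.67, against a median of 2.87. For the chloroplast sequence they were entries 190 and 248, at 0.64 and 0.78, against a median of 2.78. For miR847 they were entries 268 and 236, at 0.58 each, against a median of 1.79. miR843 had no close neighbour, with entry 270 at 1.32 and miR861-3p at 1.39, against a median of 3.28. Entries 102, 190, 212, 236, 248 and 270 are 24-nt sequences without MIR annotation, and entry 268 is one of 23 nt. Among the members, miR5998a/b and the chloroplast sequence were the closest pair, at 0.84. A distance over 6 libraries of 2 genotypes takes in the difference between the genotypes, and it was not tested.

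Predicted target sites come from the deposited psRNATarget output, whose expectation scores the mismatches of a site, with 0 the closest match and 5 the highest value listed. The members had 884 pairs of entry and site in 475 genes, all of them nuclear. The number of genes was 90 (miR847), 96 (miR830-5p), 98 (miR843), 96 (miR5998a/b) and 98 (the chloroplast sequence), against a median of 67.5 over the 142 sequences. At an expectation of at most 3, miR5998a/b had 37 genes, miR847 27, miR830-5p 24, the chloroplast sequence 18 and miR843 14. The median was 7, and they ranked 3, 7, 10, 23 and 30 of 142. The 142 include 56 sequences of 24 nt, most of which list fewer pairs than the members. Numbers and ranks were not set against sequences of the members' lengths alone, so they are not read as a trait of the members. No target transcript was analysed here, so none of these sites is known to be used in the explants.

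The best expectation was 0 for miR843 and miR5998a/b, which 8 of the 142 sequences reached, 1 for miR830-5p, and 2 for miR847 and the chloroplast sequence, where the median over all sequences was 2. The best sites are shown 5′ to 3′ as in the message, with capitals for bases that form neither a Watson-Crick nor a G-U pair with the small RNA, because they show how far each prediction rests on a full match.
miR843 on AT3G13830: uucaaugaagcucgaccuaaa
miR5998a/b on AT1G71910: acaaaacaaaacacaaacugu
miR830-5p on AT3G45850: CUcuuaaacuguuuggagaaga
miR847 on AT4G08460: Gguugagagggagaggaguga
miR847 on AT4G26210: cCucaagaagaagagUgguga
chloroplast sequence on AT4G38062: gAgCagaaaaauaaugucuaua
chloroplast sequence on AT5G37990: CUaaaagaaaaCaaugccuaua
The site of miR5998a/b was the only one of these with full Watson-Crick pairing, and that of miR843 had 1 G-U pair and 0 mismatches. In the site of miR830-5p the 2 mismatches lay at its last bases, positions 21 and 22 from the 5′ end.

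miR843 had its 2 best sites in AT3G13830 (expectation 0, coding sequence, chr3:4554152-4554172) and AT1G11810 (1.5, coding sequence, chr1:3989960-3989980). AT3G13830 is described as an F-box protein, a class that chooses proteins for ubiquitination, and AT1G11810 as F-box-associated. The term F-box stood in the description of 6 of its 98 genes, against 149 of the 7800 genes with a site for any sequence. This count takes in F-box-associated proteins. The remaining F-box sites scored 3.5 to 5.0. Other families, among them kinases, zinc fingers and NAC genes, were looked up as well, and a preference for F-box genes was not tested. At 2.5 followed 4 genes, of which ACS4 was named by gene ID order and encodes an enzyme that makes the direct precursor of ethylene. TCP4, a leaf growth factor and a known target of miR319, was among these 4 and is given here after its value was seen. The ACS4 site, in the coding sequence at chr2:9718644-9718663, had 1 mismatch and 1 gap and reads as follows.
miR843 on ACS4: Gccaagaagcuugaccuaaa
A further 6 distinct sequences had a predicted site elsewhere in ACS4, including miR159a, miR159b-3p and miR172a/b-3p, and 0 of them overlapped this one.

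miR5998a/b had its best site in the 5′ UTR of AT1G71910, at the place where the sequence itself matches the opposite strand. The similarity went beyond the site. From its mature sequence on, MIR5998b shared 30 unbroken bases with the antisense strand of AT1G71910, 9 more than the mature sequence. MIR5998a shared a run of 60 identical bases, bases 66 to 125 of the precursor, with the antisense strand of AT1G71910 within its coding sequence (chr1:27065502-27065561). Each annotated precursor was compared with the 3 best-scoring genes named for its miRNA, and no others. In the remaining pairs the longest shared run was 10 to 14 bases, but for 19 bases between MIR843 and AT3G13830, which lay within the mature sequence. Next in expectation, at 1.5, came the chromatin remodelling genes AT1G05490 and CHR5 and the glycine decarboxylase gene GLDP1. Sites in AT1G05490 and CHR5 lay in the coding sequence with 4 G-U pairs each.

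miR847 had its best sites, at 2, in AT4G08460, which encodes a protein of unknown function, and AT4G26210, for a subunit of the mitochondrial ATP synthase. The site in AT4G08460 rests on 5 G-U pairs. The third gene named, TUB5, a beta-tubulin gene, was 1 of 7 genes at 2.5. IAA28 had a site at an expectation of 3, behind 9 genes with a better score, and was 1 of 18 genes at that score. The site lay in the coding sequence at chr5:9033877-9033897 and had 3 mismatches, at positions 7, 18 and 21 from the 5′ end of miR847.
miR847 on IAA28: GauGaagaagaaggAgaguga
The only other sequence with a predicted site in IAA28 was 1 at an expectation of 5.

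miR830-5p had its best site, at 1, in AT3G45850, a gene of the P-loop nucleotide hydrolases. This site had no unbroken match in the genomic sequence of the gene, and whether it crosses an exon junction was not examined. AT1G52380, for the nuclear pore protein NUP50, followed at 2 with a site in the 3′ UTR (chr1:19511421-19511442), as did AT4G36560, for a membrane protein. Inhibition by cleavage was predicted for 121 of its 160 pairs, or 75.6%, and for 69.0% of the 184 pairs of the chloroplast sequence, against a median of 82.8% over all sequences. miR847, miR5998a/b and miR843 had 89.6%, 89.8% and 92.6%. The chloroplast sequence reached 2 in AT4G38062, for a bHLH-like protein, and in AT5G37990, for a methyltransferase, where a mismatch at position 11 went with predicted translational inhibition. WAKL2, a wall-associated kinase gene, was 1 of 7 genes at 2.5.

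Sites in genes of auxin, ethylene, callus, low-oxygen and small-RNA pathways are given by list, beside 475 genes with a member's site among the 7800 genes with a site for any sequence. Of 29 Aux/IAA repressors of auxin response, 10 had a site for any sequence and IAA28 alone had one for a member. Of 23 loci matched by the 22 symbols of auxin response factors, 8 had a site for any sequence. ARF4 had one for a member, miR843, at 4. Of 6 auxin receptors, 4 had a site for any sequence and 0 for a member. Of 16 genes of ethylene signalling, 7 had a site for any sequence and the receptor gene ERS2 had one for a member, miR847, at 4. EIN2 had no member's site. Of 22 genes of callus formation and regeneration, 6 had a site for any sequence, and the cytokinin response regulator ARR1 and the stem cell factor WUS had one for a member, both for miR847, at 3 and 4. Of 14 low-oxygen genes, 7 had a site for any sequence and RAP2.3 had one for a member, the chloroplast sequence, at 4. Of 23 loci matched by 22 symbols of the small-RNA machinery, 14 had a site for any sequence and 0 for a member. Sites of 2 members fell in 3 of the 475 genes, AT1G53340, POL and AT5G16900.

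**Figure D4:**
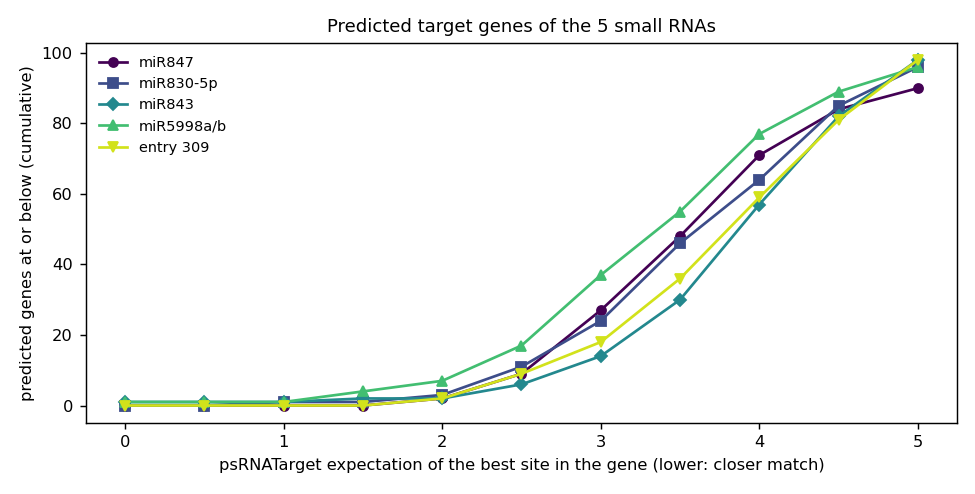
Cumulative number of predicted target genes (y axis) at or below a psRNATarget expectation (x axis, best site per gene) for the 5 members. miR5998a/b has the most genes at an expectation of 3 (37) and miR843 the fewest (14), while all 5 end between 90 and 98 genes at 5.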

How the data were processed

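The authors deposited raw counts per precursor entry for 6 libraries. Per the submitters' processing notes, cutadapt and TAIR10 were used. Aligner and counter were not given in the sources used here. Normalised score, log2 fold change and p-value columns that the authors deposited support no value here. The deposited psRNATarget expectation, also a score, was read as given for 23944 pairs, and 7 lines of the sheet that were empty as read are not analysed here. Members and gene lists were chosen with earlier results of these data known.

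Counts were fitted with edgeR 4.0.16 (R 4.3.3, TMM, filterByExpr, quasi-likelihood, genotype alone, Benjamini-Hochberg over entries) and given per distinct sequence. The SE from edgeR is the absolute log2 fold change divided by the square root of the F statistic of that test. The fit was checked on simulated counts of distinct sequences, with as many rises as falls and under TMM alone. That check does not cover repeated entries or the choice of scaling. Precursors were folded with RNAfold 2.7.2. Mature sequences, precursors and sites were placed on TAIR10.1 by exact match. Shared runs are the longest identical stretches of precursor and antisense gene. Named are all members, 2 nearest profiles per member, 3 best target genes per member (ties by gene ID), and list genes with a site. AGO8 was the list symbol without a match, and ARF1 and HST matched more than 1 locus each. Alternatives were other scalings, filters, DESeq2 1.42.0, limma-voom 3.58.1, a replicate block, and each library left out.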

Additional observations from a re-analysis of the deposited data

How the results depend on the processing

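Over the alternatives with all libraries, 63 to 92 distinct sequences were called, against 79, and 3 to 5 members, against 4. With library-size scaling on all entries the log2 fold change was 0.22 for miR847, -0.063 for miR830-5p, which reversed, 1.67 for miR5998a/b and 1.92 for the chloroplast sequence. With library-size scaling over distinct sequences, a scaling chosen after seeing the data like RLE over distinct sequences and library-size scaling without miR166, it was 0.12 for miR830-5p, 1.85 for miR5998a/b and 2.10 for the chloroplast sequence. TMM without miR166 gave 3.01 for the chloroplast sequence. These values moved by more than 1 SD between replicates. A scaling factor applies to all sequences of a library alike, and the median over all tested sequences moved too. It was 0.056 under TMM, -0.64 with library-size scaling on all entries and -0.44 with that over distinct sequences. Under TMM without miR166 it was 0.49. No other cause was tested. Leaving out 1 library gave 71 to 84 calls and 3 to 5 members called, with log2 fold changes of 0.78 to 1.29 for miR847, 0.18 to 0.95 for miR830-5p, 1.89 to 2.81 for miR843, 2.16 to 2.69 for miR5998a/b and 2.39 to 2.84 for the chloroplast sequence. Same-numbered libraries of the 2 genotypes correlated at 0.21, -0.05 and 0.17 in their deviations across 118 sequences. Differently numbered ones correlated at -0.24 to 0.04. With 3 libraries per genotype these values cannot tell whether equal numbers mark paired libraries. miR847 could not be fitted without ein2-1 replicate 3, where it missed the filter. With a replicate block, 78 sequences and 4 members were called.

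The target pairs of miR847, miR830-5p, miR843, miR5998a/b and the chloroplast sequence (173, 160, 190, 177 and 184) came to 55, 45, 26, 69 and 35 at an expectation of at most 3, and to 90, 96, 98, 96 and 98 as distinct genes. At an expectation of at most 4 they were 103 for miR830-5p, 111 for miR843 and 104 for the chloroplast sequence. Of the 10 nearest profiles, 8 were shared under library-size scaling and 10 without the filter. All Col-0 counts of miR847 and the chloroplast sequence, and 1 of miR843, were under 10. In the edgeR fit the standard error was largest for miR843, at 0.44. With DESeq2 it was 0.67 for the chloroplast sequence, 0.63 for miR847, 0.51 for miR843, 0.42 for miR830-5p and 0.38 for miR5998a/b. Which member was least precise thus depended on the method.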
